A study of Mus musculus with 10 samples.

Results

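The 8 genes described here were chosen by name, as rows of the deposited count table of 24385 genes: 4 guanylate-binding protein (GBP) genes, Gbp2, Gbp3, Gbp5 and Gbp7, and 4 immunity-related GTPase (IRG) genes, Igtp, Irgm1, Iigp1 and Ifi47. Of these 8 genes, 7 passed the filter on low counts and were among the 13075 genes tested, and Iigp1 did not. GBPs and IRGs are large and mid-sized GTPases of the cytosol that interferons induce. They gather on the membranes of vacuoles that hold bacteria or parasites, disrupt them, and give cytosolic sensors access to the microbe. Within the IRG family, the GMS proteins, named for a motif in their GTP-binding site, keep the GKS effector proteins inactive on the cell's own membranes. In mice, interferon gamma is the best known inducer of both families, with type I interferons acting on many of the same genes.

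The cells were bone marrow-derived dendritic cells (BMDCs) of wild-type female C57BL/6 mice aged 8 to 10 weeks, grown for 7 days in medium with 20 ng/mL GM-CSF, the growth factor that drives myeloid precursors towards this fate. Immature cells that did not adhere were collected on day 6 and exposed for 24 h either to AMLE, the apple mango leaf extract, at 400 µg/mL or to 0.04% DMSO. RNA was measured in 3 AMLE and 3 DMSO libraries, and open chromatin by ATAC-seq, in which a transposase cuts accessible DNA, in 2 AMLE and 2 DMSO libraries of 100000 cells each. Whether replicates stem from different mice or cultures is not in the labels, so a p-value here measures the spread between these libraries, which may be technical. In bulk libraries such as these, fewer cells of one type and less RNA per cell cannot be told apart.

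Total counts lay between 26010455 and 34208286 in the AMLE RNA libraries and between 28457863 and 31413578 in the DMSO libraries. On the first principal component of all tested genes, AMLE replicate 3 lay nearest to the DMSO libraries (a score of -20.4, against -33.0 and -40.6 in AMLE replicates 1 and 2 and 27.5 to 35.7 in DMSO). Cell type was checked on marker lists. Itgax, which encodes the dendritic cell integrin CD11c, stood at 688 CPM (counts scaled to a common library size) in AMLE and 708 CPM in DMSO on average. Of 10 dendritic cell markers 6 were higher in AMLE (Flt3, Zbtb46, Ccr7, Cd86, Fscn1 and Batf3) and 1, H2-Ab1, lower. Itgax, Cd74 and Dpp4 were not called (edgeR adjusted p below 0.05). Of all tested genes, 23.0% were called higher and 25.6% lower. The summed level of the 10 markers was 8315 to 9093 CPM in AMLE and 5897 to 8587 CPM in DMSO. The 1 lower call became 2 with the replicate number as a block and 0 without AMLE replicate 1 or 2 or DMSO replicate 2 or 3 or with no low-count filter.

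The starts of the members are printed first, because the factors that interferons activate bind short motifs there. RefSeq, on build GRCm38.p6 (the same assembly as mm10), gave promoter sequences for 7 of the 8 members, all but Iigp1. Each line below holds the 250 bases before an annotated start, 5′ to 3′ in the direction of transcription. Capitals mark matches on either strand to 3 letter patterns: the interferon-stimulated response element ISRE (GAAA and GAAA with 2 bases between them), the gamma-activated site GAS (TTCNNNGAA) and the ETS-IRF composite element EICE (GGAA and GAAA with 2 bases between them). The first 4 are the GBP genes in their order along chromosome 3, all on the plus strand, at chr3:142496684-142496933 (Gbp5), chr3:142530086-142530335 (Gbp7), chr3:142559794-142560043 (Gbp3) and chr3:142620413-142620662 (Gbp2), and they are shown because these neighbours did not move together. Igtp, at chr11:58199306-58199555, and Irgm2, at chr11:58214727-58214976, both on the plus strand, are shown because they are close copies that did. Irgm1, at chr11:48871421-48871670 on the minus strand, and Ifi47, at chr11:49076337-49076586 on the plus strand, complete the IRG members.
Gbp5: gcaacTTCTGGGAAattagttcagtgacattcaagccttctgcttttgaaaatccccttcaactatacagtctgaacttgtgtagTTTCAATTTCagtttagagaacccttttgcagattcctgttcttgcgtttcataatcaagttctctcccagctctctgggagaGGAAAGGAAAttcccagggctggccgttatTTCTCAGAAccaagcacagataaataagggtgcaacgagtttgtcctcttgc
Gbp7: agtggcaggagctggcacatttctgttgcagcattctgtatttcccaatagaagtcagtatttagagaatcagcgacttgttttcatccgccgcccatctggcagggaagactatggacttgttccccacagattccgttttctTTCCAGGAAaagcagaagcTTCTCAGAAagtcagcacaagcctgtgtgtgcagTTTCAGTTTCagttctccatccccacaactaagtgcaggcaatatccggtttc
Gbp3: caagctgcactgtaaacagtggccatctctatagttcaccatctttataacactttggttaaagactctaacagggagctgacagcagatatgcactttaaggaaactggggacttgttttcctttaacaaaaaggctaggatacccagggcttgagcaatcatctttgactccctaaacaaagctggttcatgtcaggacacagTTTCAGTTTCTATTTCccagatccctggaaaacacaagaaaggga
Gbp2: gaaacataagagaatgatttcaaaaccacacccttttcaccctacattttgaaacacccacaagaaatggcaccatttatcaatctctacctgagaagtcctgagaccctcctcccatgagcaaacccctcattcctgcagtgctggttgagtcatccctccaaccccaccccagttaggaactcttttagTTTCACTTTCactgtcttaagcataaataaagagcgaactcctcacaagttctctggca
Igtp: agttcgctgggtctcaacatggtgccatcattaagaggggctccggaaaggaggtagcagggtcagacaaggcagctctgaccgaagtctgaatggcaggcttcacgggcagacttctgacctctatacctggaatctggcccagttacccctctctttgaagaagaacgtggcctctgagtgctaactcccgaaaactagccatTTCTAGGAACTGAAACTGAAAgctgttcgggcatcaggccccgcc
Irgm2: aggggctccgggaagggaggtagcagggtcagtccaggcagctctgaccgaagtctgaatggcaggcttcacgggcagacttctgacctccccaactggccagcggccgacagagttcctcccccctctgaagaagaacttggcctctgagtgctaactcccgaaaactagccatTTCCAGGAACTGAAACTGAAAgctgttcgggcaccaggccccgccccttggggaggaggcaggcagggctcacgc
Irgm1: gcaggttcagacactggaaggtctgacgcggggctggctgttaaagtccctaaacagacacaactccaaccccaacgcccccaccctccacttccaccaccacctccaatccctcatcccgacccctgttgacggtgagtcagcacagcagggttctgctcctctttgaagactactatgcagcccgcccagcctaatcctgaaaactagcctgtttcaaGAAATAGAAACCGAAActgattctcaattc
Ifi47: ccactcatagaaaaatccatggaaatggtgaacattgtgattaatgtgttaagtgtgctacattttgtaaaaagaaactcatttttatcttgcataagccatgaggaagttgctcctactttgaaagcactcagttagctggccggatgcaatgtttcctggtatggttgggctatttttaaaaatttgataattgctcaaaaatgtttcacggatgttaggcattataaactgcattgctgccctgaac

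An ISRE match was present before the start of 6 of the 7 members with a sequence, all but Ifi47. The pattern is in 2.98% of the 32851 mouse promoters of the same length. Among the GBP genes its first base was at position -165 in Gbp5, -53 in Gbp7, -45 in Gbp3 and -59 in Gbp2, counted back from the start. Gbp3 and Irgm1 each held 2 ISRE matches that overlap each other. The second annotated start of Gbp3, at 142560356, had none of the 3 patterns before it. GAS matches, present in 7.02% of promoters, were found at 2 places in Gbp5 (from -245 and from -52), at 2 in Gbp7 (from -106 and from -87) and at 1 in Igtp (from -45). EICE matches, in 2.30% of promoters, occurred in Gbp5 and Igtp, and in Igtp the GAS, EICE and ISRE matches overlap in one unbroken stretch. With 2 further patterns, not capitalised, Gbp2 and Irgm1 matched AP-1 (TGANTCA, 6.75% of promoters) and Gbp5 matched NF-kB (7.25% of promoters), overlapping its EICE match. Gbp5 and Gbp7 both held ISRE and GAS letters, and Gbp5 also held EICE and NF-kB letters that Gbp7 lacked. Whether these letters bear on the direction of the RNA changes was not tested. A match describes the letters and does not show that a factor binds.

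The members moved in both directions. Of the 7 tested, Gbp5, Gbp2 and Igtp rose in AMLE, Gbp7 fell, and Gbp3, Irgm1 and Ifi47 did not pass the test (edgeR quasi-likelihood test, Benjamini-Hochberg adjusted p below 0.05 over all tested genes). The background is large: 23.0% of all tested genes were called higher and 25.6% lower, 48.6% in all, so a call in itself was common. These shares stand beside the counts of every gene list below. In the AMLE libraries every value lay above every DMSO value for the 3 members that rose (28.4% of all tested genes) and below for Gbp7 (31.4% of all tested genes). The median log2 fold change (AMLE minus DMSO) of the 7 tested members was 0.19, where that of all tested genes was -0.01. With both libraries numbered 3 left out, 5 members were called higher, because Gbp3 (adjusted p = 0.0316) and Ifi47 (0.0115) then passed.

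**Figure D1:**
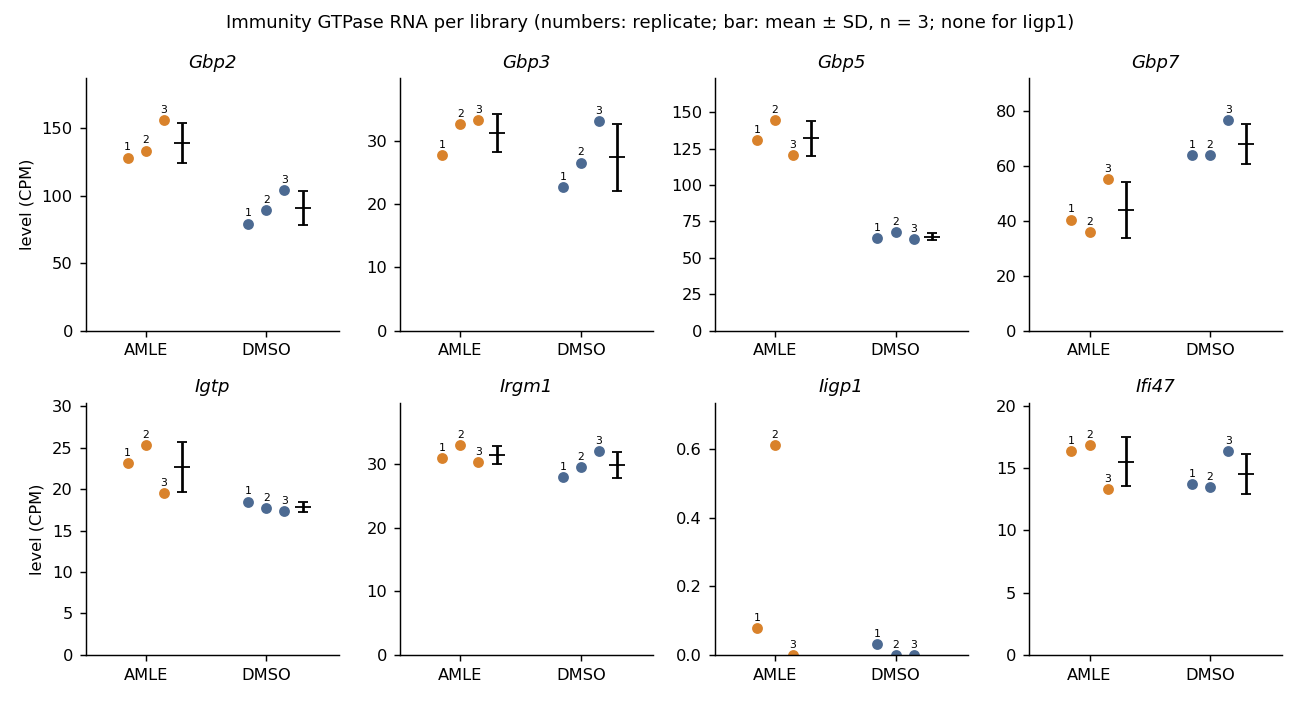
RNA level of each member in CPM (y axis, linear from 0) in the 3 AMLE (left, orange) and 3 DMSO (right, blue) libraries, numbered by replicate, with mean ± SD as a black bar except for Iigp1, which was not tested. The AMLE values of Gbp2, Gbp5 and Igtp all lie above the DMSO values, those of Gbp7 all lie below, and Iigp1 is near 0 outside AMLE replicate 2.

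Gbp5 had the largest rise among the tested members. This protein, anchored to membranes by a lipid, has been linked to inflammasome activation in mouse macrophages. Its counts were 3376, 4949 and 3153 in AMLE replicates 1 to 3 and 2002, 1926 and 1818 in DMSO replicates 1 to 3, or 131, 144 and 120 CPM in AMLE and 63.6, 67.6 and 62.6 CPM in DMSO. The DMSO libraries were close to one another and the AMLE libraries all stood well above them. Gbp5 averaged 132 ± 12.0 CPM in AMLE and 64.6 ± 2.64 CPM in DMSO (SD, n = 3 each), a 2.04-fold difference (log2 fold change 1.03 ± 0.07, SE; edgeR adjusted p = 9.69e-05). The log2 fold change of Gbp5 was above that of 94.3% of all tested genes, and the gene was called in all 12 alternative fits.

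Gbp2, which coats vacuoles of Toxoplasma and of bacteria in mouse cells, also rose. Its levels were 128, 133 and 156 CPM in AMLE and 79.3, 89.4 and 104 CPM in DMSO, so the lowest AMLE library was above the highest DMSO library. The means were 139 ± 14.7 CPM in AMLE and 91.0 ± 12.5 CPM in DMSO (SD, n = 3 each), a 1.53-fold difference (log2 fold change 0.61 ± 0.12, SE; edgeR adjusted p = 0.00486). Gbp2 was called in each of the 12 alternatives as well. In both groups the highest value of Gbp2 was that of replicate 3.

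Gbp7 went the other way. The protein has been tied to assembly of the phagocyte NADPH oxidase on vacuoles of mouse macrophages. It stood at 40.4, 35.8 and 55.2 CPM in AMLE and at 63.8, 63.8 and 76.5 CPM in DMSO. AMLE replicate 3 was the AMLE library closest to the DMSO values but remained below all of them. Gbp7 averaged 43.8 ± 10.1 CPM in AMLE and 68.0 ± 7.32 CPM in DMSO (SD, n = 3 each), 1.55-fold lower in AMLE (log2 fold change -0.64 ± 0.16, SE; edgeR adjusted p = 0.0168). The call was lost without AMLE replicate 1 (adjusted p = 0.059) and without DMSO replicate 3 (0.0532), with the value still negative.

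Gbp3, a further GBP that gathers on pathogen vacuoles, did not pass the test. Its 27.8, 32.8 and 33.3 CPM in AMLE overlapped with 22.7, 26.6 and 33.2 CPM in DMSO, where replicate 3 was as high as the AMLE libraries. The log2 fold change was 0.19 ± 0.14 (SE; edgeR adjusted p = 0.315), and it passed without DMSO replicate 3 (adjusted p = 0.0465).

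These 4 genes and Gbp2b lie side by side on 141.1 kb of chromosome 3, in the order Gbp5 (chr3:142496934-142522344), Gbp7 (chr3:142530336-142550151), Gbp3 (chr3:142560016-142573213), Gbp2b (chr3:142594816-142619179) and Gbp2 (chr3:142620663-142638008). Gbp5 and Gbp7, which were called in opposite directions, are separated by 7.99 kb. The ratio of Gbp5 to Gbp7 counts within a library was 3.25, 4.03 and 2.18 in AMLE and 0.998, 1.06 and 0.819 in DMSO. Gbp2 to Gbp7 count ratios were 3.17, 3.72 and 2.82 in AMLE and 1.24, 1.40 and 1.36 in DMSO. The pairs were picked after their values were seen and their ratios were not tested. A count ratio within a library does not depend on how the library is scaled.

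**Figure D2:**
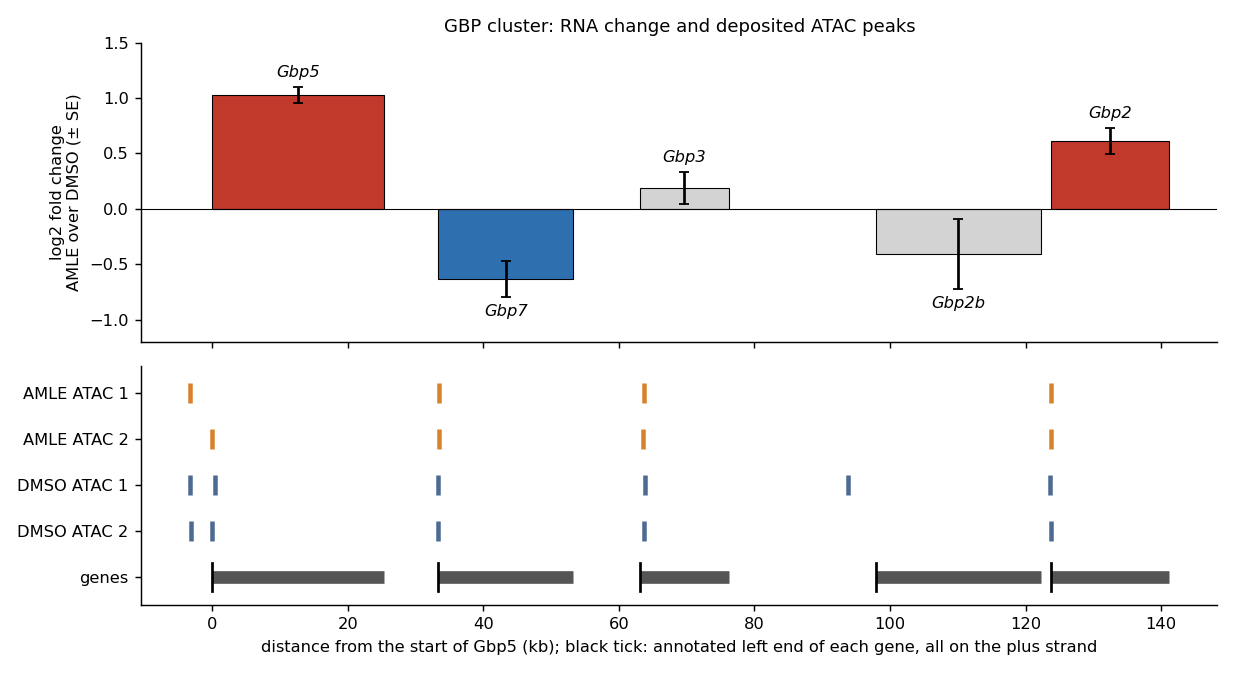
Top, log2 fold change (AMLE over DMSO, ± SE) of the 5 GBP genes on chromosome 3, drawn across each gene's span; red marks a gene called higher, blue one called lower and grey one not called. Bottom, peaks deposited for each ATAC library (2 AMLE above 2 DMSO) and the genes, against distance from the start of Gbp5 in kb, where Gbp5 and Gbp2 at the ends are higher and Gbp7 between them is lower.

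Among the IRG members Igtp, also called Irgm3, is a GMS protein that guards the cell's own membranes. Its levels of 23.2, 25.3 and 19.5 CPM in AMLE all exceeded 18.5, 17.7 and 17.4 CPM in DMSO, although AMLE replicate 3 exceeded the highest DMSO library by little. Igtp averaged 22.7 ± 2.97 CPM in AMLE and 17.8 ± 0.583 CPM in DMSO (SD, n = 3 each), a 1.27-fold difference (log2 fold change 0.35 ± 0.10, SE; edgeR adjusted p = 0.0242). The call was lost without AMLE replicate 1 (adjusted p = 0.0731), AMLE replicate 2 (0.0669), DMSO replicate 1 (0.0542), DMSO replicate 2 (0.0748) or DMSO replicate 3 (0.0671). It held without AMLE replicate 3 (0.00171).

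Irgm1, the GMS protein needed for resistance to mycobacteria in mice, had 30.9, 33.0 and 30.3 CPM in AMLE and 27.9, 29.5 and 32.0 CPM in DMSO, and the groups overlapped. Its log2 fold change was 0.08 ± 0.07 (SE; edgeR adjusted p = 0.39), and it was not called in any of the 12 alternatives. Ifi47, the GKS protein also named Irgd, had 16.4, 16.9 and 13.3 CPM in AMLE and 13.7, 13.5 and 16.4 CPM in DMSO. Here replicate 3 was the lowest of the AMLE libraries and the highest of the DMSO libraries, and the log2 fold change was 0.10 ± 0.12 (SE; edgeR adjusted p = 0.519).

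Iigp1, which encodes the GKS effector Irga6 that loads onto Toxoplasma vacuoles, was almost silent. It had 2, 21 and 0 counts in AMLE replicates 1 to 3 and 1, 0 and 0 counts in DMSO replicates 1 to 3. The 21 counts of AMLE replicate 2 have a two-sided 95% Poisson interval of 13.0 to 32.1 counts. A count of 0 has a two-sided upper limit of 3.69 counts and a one-sided one of 3 counts, which is 0.115 CPM in AMLE replicate 3 and 0.105 and 0.103 CPM in DMSO replicates 2 and 3. These limits cover counting error only. The difference between the groups thus rests on 1 library. When the gene was kept in the fit by dropping the low-count filter, its edgeR adjusted p was 0.117. Tgtp1, a GKS effector gene of the same family, was also highest in AMLE replicate 2, and so were the T cell gene Cd3e (8, 55 and 9 counts in AMLE, 5, 8 and 0 in DMSO) and Cd8a (64, 258 and 30 counts in AMLE, 28, 43 and 27 in DMSO). This was not particular to T cell genes. Gbp5 (144 CPM), Irf8 (906), Ccr7 (1947) and Cpa3 (118) were highest in that library too, whereas Gbp2 was highest in AMLE replicate 3. On the first principal component AMLE replicate 2 lay furthest from the DMSO libraries (-40.6). Cd8a was not called (log2 fold change 1.78, edgeR adjusted p = 0.0667), but was called higher with the replicate block (adjusted p = 0.0124), with DESeq2 (0.00845), without AMLE replicate 3 (0.0117) and with both number 3 libraries dropped (0.0455). The 13 NK and T cell markers in the table summed to 4.89 to 20.1 CPM in AMLE and 5.10 to 7.34 CPM in DMSO. Of the 5 tested, Gzmb was higher (2.42) and Nkg7 lower (-1.03), with 3 higher under the replicate block, 4 with DESeq2, without AMLE replicate 3 or with both number 3 libraries dropped, 2 without DMSO replicate 2 and 0 without DMSO replicate 1 or 3. None of the 13 was at 0 in all libraries. Their part in the Iigp1 and Tgtp1 values was not tested.

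The rest of the GBP family gave no call. Of the 11 listed GBP genes 10 were tested, with Gbp2 and Gbp5 higher and Gbp7 lower. Besides the members, Gbp4 (-0.13), Gbp6 (-0.30), Gbp8 (0.10), Gbp9 (-0.07), Gbp2b (-0.41) and Gbp11 (-0.48) had log2 fold changes that did not pass. Gbp2b, the neighbour that encodes mouse Gbp1, was called lower without AMLE replicate 3 (edgeR adjusted p = 0.0456) and without both libraries numbered 3 (0.0156). Gbp10 had at most 4 counts in any library and was not tested. The median of the 10 was -0.10, close to -0.01 for all tested genes. Gbp2, Gbp3, Gbp5, Gbp7 and the chromosome 5 genes are paralogues. How reads that match several of them were assigned is not stated, and their separate values carry that uncertainty.

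In the IRG family 10 of 12 listed genes were tested, of which 3 rose (Igtp, Irgm2 and Tgtp1) and 2 fell (Gm4951 and Gm5431), with a median of 0.22. Irgm2, the third GMS protein and the neighbour of Igtp at a distance of 7.385 kb, had 37.1, 39.6 and 31.1 CPM in AMLE and 28.7, 26.3 and 25.0 CPM in DMSO (log2 fold change 0.43 ± 0.10, SE; edgeR adjusted p = 0.0104). Its groups did not overlap. The ratio of Igtp to Irgm2 counts varied little, though it was lower in every AMLE library, at 0.625, 0.639 and 0.627 in AMLE and 0.645, 0.673 and 0.694 in DMSO. Their promoters, printed above, share 194 of 215 aligned bases (90.2%). Against Irgm1, Igtp had count ratios of 0.749, 0.768 and 0.642 in AMLE and 0.663, 0.599 and 0.542 in DMSO.

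Tgtp1 and Tgtp2 encode the effector Irgb6 from near-identical genes. Tgtp1 had 159, 356 and 72 counts in AMLE and 57, 39 and 22 counts in DMSO, a log2 fold change of 2.30 ± 0.53 (SE; edgeR adjusted p = 0.0109). Tgtp2 was at 0.72 (adjusted p = 0.113) and was called higher under the replicate block (0.0163) and if AMLE replicate 3 was left out (0.0121). The ratio of Tgtp1 to Tgtp2 counts was 2.79, 4.40 and 2.48 in AMLE and 1.27, 1.15 and 0.917 in DMSO, but reads that fit both copies could be split between them in any way, so each value is uncertain.

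Gm12250, the gene of the effector Irgb10, was at 0.41 (edgeR adjusted p = 0.0883; 0.0134 without AMLE replicate 3). Gm12185 was at -0.12 and was not called. Gm4951 (-0.67, edgeR adjusted p = 0.0341), at 25 to 50 counts a library, and Gm5431 (-0.60, adjusted p = 0.0333), at 96 to 198, were called lower. Neither call was firm. Gm4951 was not called with DESeq2 (0.0789) or without AMLE replicate 2, AMLE replicate 3, DMSO replicate 2 or DMSO replicate 3 (0.0657 to 0.113). Gm5431 lost its call without AMLE replicate 1 or 2 or DMSO replicate 1, 2 or 3 (0.0681 to 0.109) and held it with both libraries numbered 3 removed. With any 1 library left out, 0 or 1 IRG genes fell, and 5 rose without AMLE replicate 3. F830016B08Rik was below the filter. Of the Mx GTPases, interferon-induced antiviral proteins outside both families, Mx1 (-0.15, adjusted p = 0.319) and Mx2 (-0.26, adjusted p = 0.174) were not called. Mx1 gained a lower call once AMLE replicate 3 was dropped (-0.25, edgeR adjusted p = 0.0428), as it did with both number 3 libraries dropped (-0.27, adjusted p = 0.0360).

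**Figure D3:**
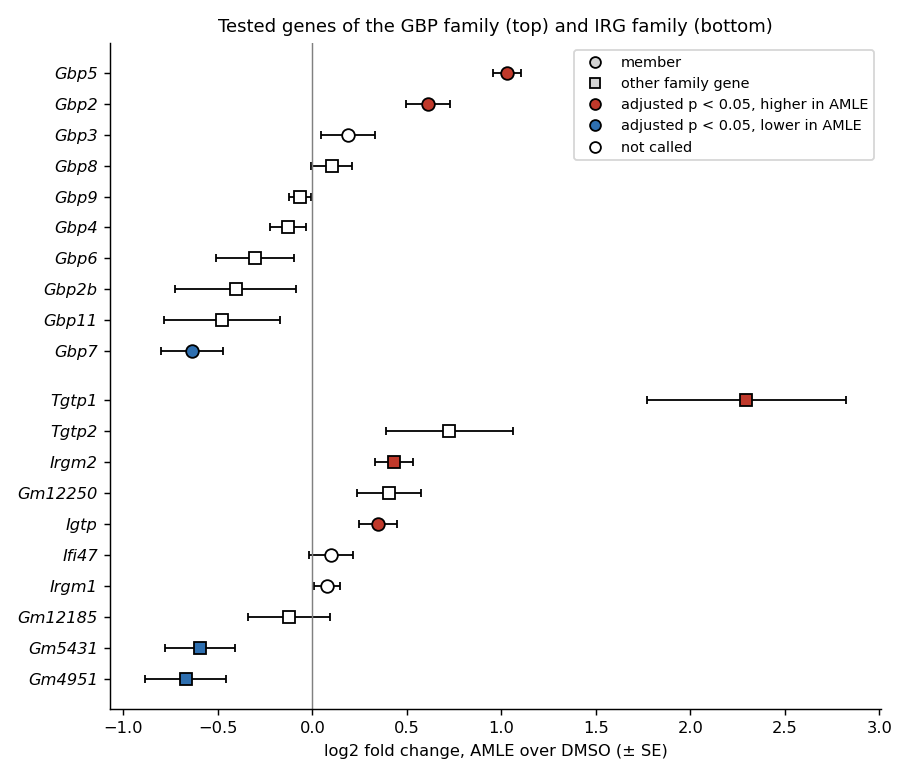
Log2 fold change (AMLE over DMSO, x axis) with its SE for the tested genes of the GBP family (top) and the IRG family (bottom), circles for the members and squares for their relatives. Gbp5, Gbp2, Tgtp1, Irgm2 and Igtp are called higher (red), Gbp7, Gm5431 and Gm4951 lower (blue), and the white symbols did not pass.

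The genes that carry interferon signals to these GTPases were then read from gene lists. The interferon genes Ifng and Ifnb1 themselves had almost no counts. Ifng had 1, 3 and 0 counts in AMLE and 1, 0 and 0 in DMSO, and Ifnb1 had 0, 1 and 0 counts in AMLE and 0 in each DMSO library. Of the interferon gamma receptor chains, Ifngr2 rose (0.18, edgeR adjusted p = 0.0142) and Ifngr1 was at -0.19 (0.0593), and it was called lower under the replicate block (0.00852), without AMLE replicate 3 (0.0444) and without DMSO replicate 2 (0.0396). Ifnar1, a chain of the type I interferon receptor, was at 0.07 (0.513).

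The transcription factors Irf1 and Irf8 rose. Irf1, which binds ISRE sites of the GBP genes, averaged 193 ± 3.30 CPM in AMLE and 115 ± 4.27 CPM in DMSO (log2 fold change 0.75 ± 0.05, SE; edgeR adjusted p = 6.71e-05). Irf8, which binds EICE sites with an ETS partner, averaged 803 ± 101 CPM in AMLE and 218 ± 16.4 CPM in DMSO (1.88 ± 0.10; adjusted p = 4.59e-05). In both genes every AMLE library stood above every DMSO library. Socs1, the feedback inhibitor of the receptor kinases, rose by 0.62 (adjusted p = 0.0209), a call lost without AMLE replicate 1, AMLE replicate 2 or DMSO replicate 3 (0.0542 to 0.0688) and with no low-count filter (0.0502). In the interferon gamma signalling list 8 of 13 tested genes were higher and 0 lower, with a median of 0.18. At an unadjusted p below 0.05 edgeR gave 2 lower, DESeq2 and limma-voom called 0 lower, the replicate block 2, and 1 was lower without AMLE replicate 3, DMSO replicate 1 or DMSO replicate 2.

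Most of the other listed targets of interferon gamma rose. Of 14 tested, 10 were higher and 1 lower (3 lower with the replicate block, 2 with DESeq2 or without AMLE replicate 3), with a median of 0.48 beside 0.19 for the members. Nos2, the inducible nitric oxide synthase, rose most (3.07 ± 0.31, SE), and Fcgr1, the high-affinity IgG receptor, fell (-1.54 ± 0.22). In the type I list 16 of 23 tested target genes were higher, Oasl1 (1.63) and Ifit1 (1.40) most, with a median of 0.53. The 3 lower ones were Ifi44 (-1.56), Ifit2 (-0.81) and Cmpk2 (-0.50). Ifi44 had only 4 to 7 counts in AMLE and 17 to 22 in DMSO. Ifit2 was not called without AMLE replicate 1, AMLE replicate 2 or DMSO replicate 3 (edgeR adjusted p = 0.0593 to 0.0657), nor Cmpk2 without AMLE replicate 2, AMLE replicate 3, DMSO replicate 1 or DMSO replicate 2 (0.0657 to 0.131). Among 10 type I signalling genes 6 were higher, Irf7 (1.28) and Usp18 (1.23) most, and Ptpn6, a phosphatase gene, was lower (-0.26; 0 lower without DMSO replicate 1 or 2). Differences between these lists and the members were not tested.

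Genes listed beside the GTPases were called in both directions, where 23.0% of all tested genes were called higher and 25.6% lower. In the list of caspase-11 and AIM2 sensing, the cytosolic pathways that GBPs feed, Il1b (0.98) and Casp4, the mouse gene of caspase-11 (0.65 ± 0.07, edgeR adjusted p = 0.000448), rose. Of the 10 genes Nlrp3 (-0.64, edgeR adjusted p = 0.00107) and Nlrc4 (-0.39), which encode inflammasome sensors, fell (4 fell with the replicate block, 1 without any single library other than AMLE replicate 3 and 1 with RLE factors or no low-count filter). The call of Nlrp3 held in all 12 alternatives. Aim2 (0.12, adjusted p = 0.0857) and Gsdmd, the pore-forming gasdermin D (0.00, adjusted p = 0.999), were not called. LC3 conjugation is the autophagy step that helps place GBPs and IRGs on vacuoles. Its list also held regulators and adaptors outside that step, among them Sqstm1 and Traf6. Of the 17 listed genes 7 were higher and 2 lower, Atg3 (-0.41) and Atg7 (-0.32), the enzymes that pass LC3 on. Sqstm1 (0.63) and Traf6 (0.61) rose most, and 3 genes were higher without AMLE replicate 1, DMSO replicate 1 or DMSO replicate 2, and 4 with no low-count filter. Of 8 genes listed for prenylation, the kind of lipid attachment that anchors Gbp2 and Gbp5, 0 were higher and 2 lower, Zmpste24 (-0.51) and Fntb (-0.29). Whether the products of these 2 genes act on Gbp2 or Gbp5 was not tested. DESeq2 and limma-voom called 0 higher too, against 1 at an unadjusted edgeR p below 0.05. Fntb was not called with DESeq2 (0.0646) or without AMLE replicate 2, AMLE replicate 3, DMSO replicate 1 or DMSO replicate 2 (0.0623 to 0.123). Over all these lists, the families included, 54 of 117 distinct tested genes were higher and 14 lower. The lower count was 8 without AMLE replicate 2 and 9 without DMSO replicate 2 or 3. It was 21 with the replicate block and 17 without both libraries numbered 3. The lower genes other than Fcgr1, Zmpste24, Fntb and those of both families were named after their values were seen.

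**Figure D4:**
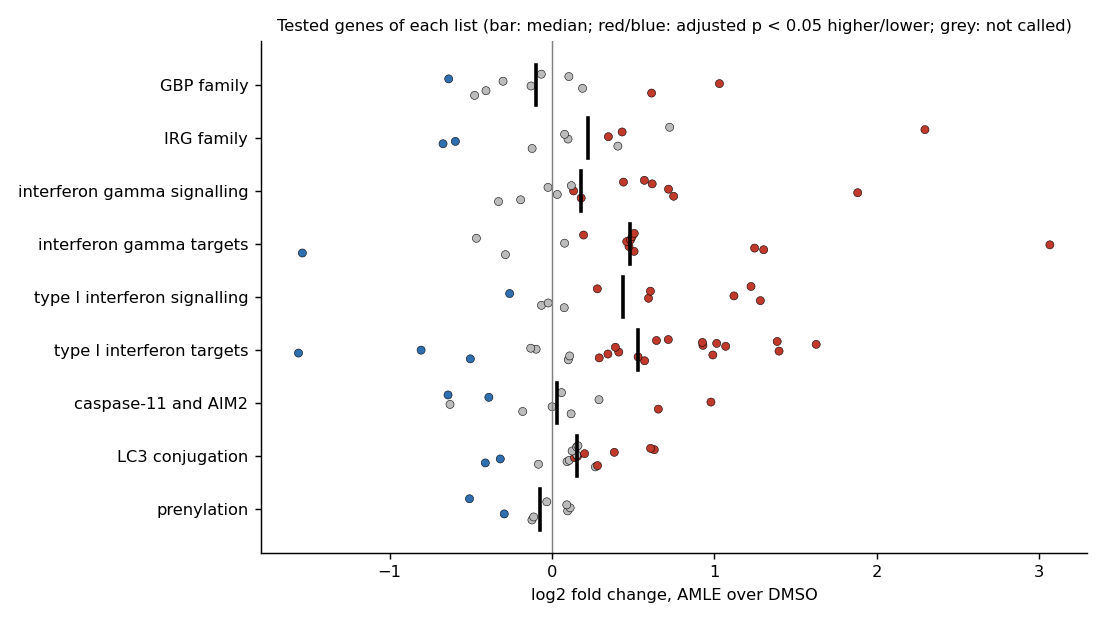
Log2 fold change (AMLE over DMSO, x axis) of every tested gene in each list, 1 point a gene, red where called higher, blue where called lower, grey where not called, with the list's median as a black bar. The GBP median lies at -0.10 and the IRG median at 0.22, to the left of the target lists of interferon gamma (0.48) and of type I interferon (0.53).

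Markers of other cells moved between the groups. Of 10 macrophage markers 6 were lower and 1, Adgre1, higher in AMLE (0 higher without AMLE replicate 1 or 2 or DMSO replicate 1 or 3), and they summed to 1069 to 1838 CPM in AMLE and 1865 to 2250 CPM in DMSO. The lower ones included C1qa (log2 fold change -4.99), C1qc (-4.55), C1qb (-4.52) and Mrc1 (-2.33). Csf1r (-0.19) and Cd68 (-0.06), the macrophage markers with the highest levels, changed little. Of 10 neutrophil and precursor markers 7 were lower and 1, Cxcr2, higher (0 higher without AMLE replicate 1 or 2 or with no low-count filter), with sums of 8897 to 12490 CPM in AMLE and 13501 to 21472 CPM in DMSO. The precursor genes Elane (log2 fold change -4.62) and Mpo (-3.01) fell most. S100a9 (-0.44) and S100a8 (-0.53), which had the highest levels, changed less. Mast cell and basophil markers were higher in 3 of 6, Cpa3, Mcpt8 and Fcer1a (5 with the replicate block, without AMLE replicate 3 or with both number 3 libraries dropped, 1 without AMLE replicate 1 or 2 or DMSO replicate 2 or 3 or with no low-count filter), with sums of 235 to 450 CPM in AMLE and 144 to 229 CPM in DMSO. Kit, on the same list, was at -0.41 and not called (edgeR adjusted p = 0.0592). Of the 6, 0 were lower in the main fit. With DESeq2, with limma-voom, without AMLE replicate 3, without DMSO replicate 3 or without both, 1 was lower. B cell markers summed to 26.9 to 38.6 CPM in AMLE and 26.0 to 37.7 CPM in DMSO, with 0 of 5 called by edgeR, DESeq2 or limma-voom and 0 at an unadjusted p below 0.05. Plasmacytoid markers summed to about 120 CPM in AMLE and 100 to 106 CPM in DMSO, with 1 of 5, Tcf4, higher and 1, Ly6d, lower (2 higher without DMSO replicate 2, and 0 lower with limma-voom or without any 1 library other than DMSO replicate 3). None of these markers was at 0 in all libraries. Their part in the values of the GTPases was not tested.

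For each tested member the gene outside the list with the most similar profile over the 6 libraries was found, by the Euclidean distance between log2 CPM values centred on each gene's mean, among 8957 genes with a mean of at least 10 CPM. Nearest to Gbp5 was Slco5a1, at a distance of 0.0489. Nearest to Gbp2 was Cercam (0.0661), to Gbp7 Cd200r1 (0.0855) and to Gbp3 Erc1 (0.102). For the IRG genes these were Nup88 for Igtp (0.0481), Dnpep for Irgm1 (0.0423) and Hyls1 for Ifi47 (0.145). The distances are descriptions over 6 libraries that share the group difference.

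Deposited ATAC peaks at the member starts were compared last. The lists held 15805 and 15597 distinct intervals in AMLE replicates 1 and 2 and 18460 and 19225 in DMSO replicates 1 and 2, so the AMLE lists were the shorter ones. A peak within 1000 bases of an annotated start was present for 4 and 5 of the 7 members with a start in AMLE replicates 1 and 2, and for 6 in each DMSO replicate. In both AMLE libraries this held for 3 members (Gbp2, Gbp3 and Gbp7), where 69.6% of the 9978 tested genes with a promoter entry had such a peak. In both DMSO libraries it held for 5 (these 3, Gbp5 and Irgm1), where the share of all was 72.6%. With 2 libraries a group no test was made.

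At the GBP genes, peaks of Gbp2, Gbp3 and Gbp7 were in all 4 lists. The fold that the authors' peak caller gave is used here only to place a peak within its own list. By that fold the Gbp7 start peak stood above 44.3% and 4.73% of intervals in the 2 AMLE lists and above 52.5% and 68.1% in the 2 DMSO lists. For Gbp2 the shares were 31.1% and 19.8% in AMLE and 11.1% and 14.6% in DMSO. For Gbp3 they were 48.4% and 53.1% in AMLE and 37.1% and 40.2% in DMSO, and its peaks lay over the second annotated start. Ranks in lists of different lengths cannot show whether a peak changed between the groups. Gbp5, the gene with the largest rise in RNA, had a start peak in AMLE replicate 2 and both DMSO libraries but not in AMLE replicate 1. Its peaks were low in their lists, above 4.55% in AMLE replicate 2 and above 13.2% and 22.6% in DMSO. A further peak had its summit at -3211 bases from the Gbp5 start in AMLE replicate 1 and at -3198 and -3028 bases in DMSO replicates 1 and 2.

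At the IRG genes, the start peaks were called in fewer libraries. Igtp had one in AMLE replicate 1 (above 34.7% of intervals) and in DMSO replicate 2 (45.8%) and none in AMLE replicate 2 or DMSO replicate 1. Irgm1 had one in AMLE replicate 2 (15.3%) and in both DMSO libraries (8.91% and 21.7%), and the AMLE peak had its summit at -835 bases. Ifi47 had one in DMSO replicate 1 alone (16.9%), and its nearest AMLE peaks were 126384 and 126409 bases away. Irgm2, which is not a member, had a start peak in both DMSO libraries and in neither AMLE library, while its RNA was higher in AMLE. That pattern was found in 1.35% of genes with an entry and in no member. ATAC reads that fit both Igtp and Irgm2 may be placed at either copy, so their peaks carry that uncertainty. The opposite pattern, a start peak in both AMLE libraries alone, was found in 0.241% of genes and in 0 of the 7 members. Iigp1, at chr18:60373616-60392634, had no peak within 10000 bases in any library.

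**Figure D5:**
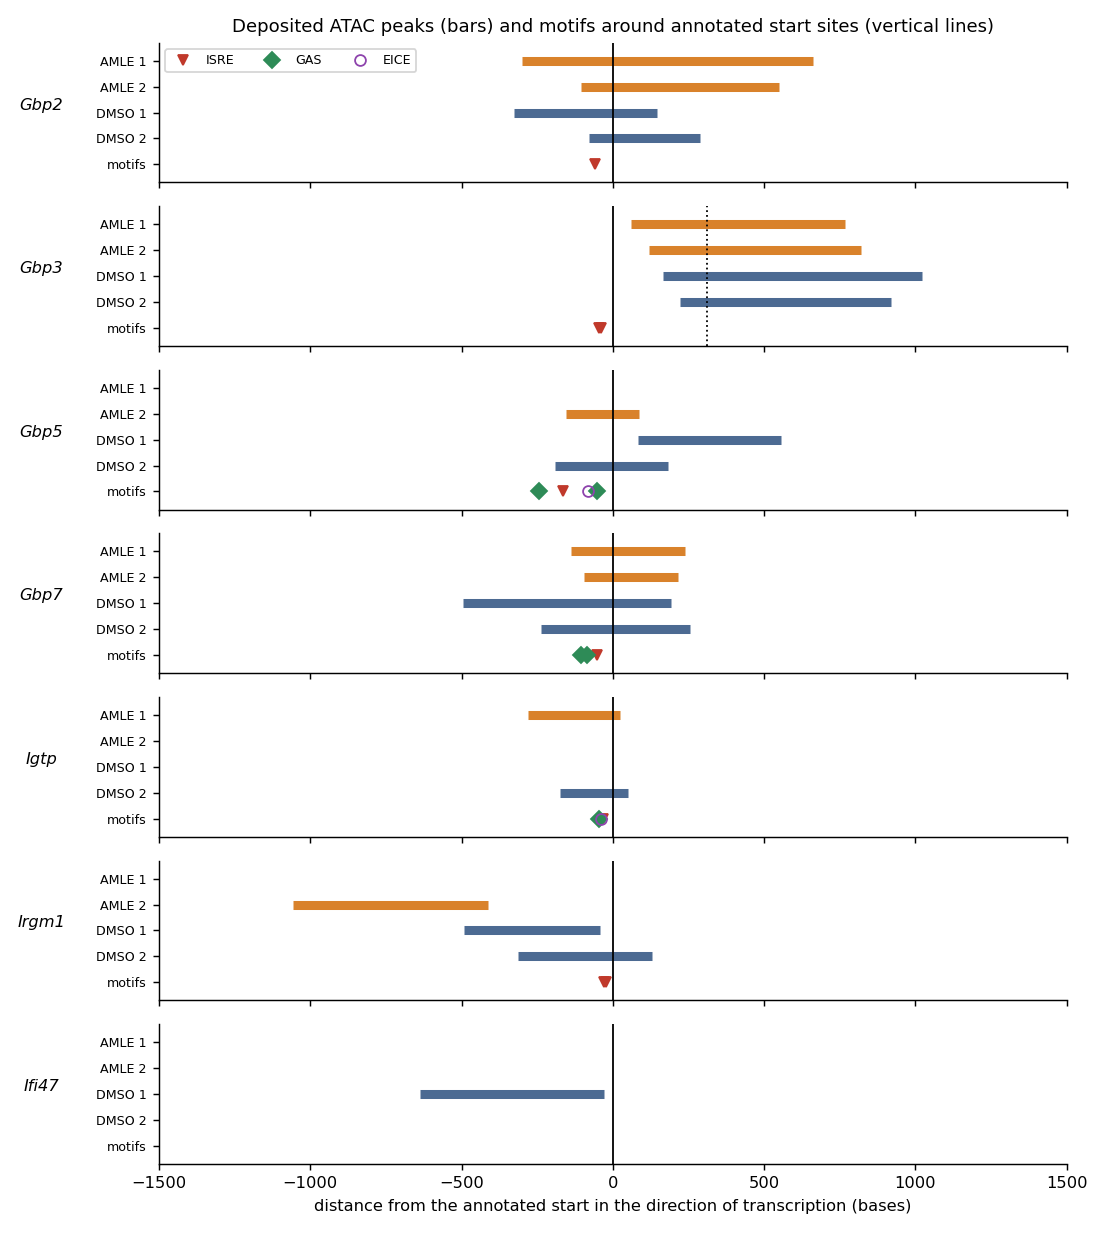
Peaks deposited for each ATAC library (bars, 2 AMLE in orange above 2 DMSO in blue) around the annotated start (solid line at 0) of 7 members, with motif matches in the lowest row of each panel, against distance in bases in the direction of transcription. The dotted line in the Gbp3 panel is its second annotated start, with no match in the 250 bases before it. Gbp2, Gbp3 and Gbp7 carry bars in all 4 libraries, and Ifi47 in DMSO replicate 1 alone.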

How the data were processed

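The RNA values are raw read counts per gene symbol in 6 libraries, as the authors deposited them, from a stranded poly(A) protocol per the labels. The ATAC values are peak lists, 1 for each of 4 libraries, in which the authors' caller gave every summit a fold over background and a −log10 q (lowest 1.30 to 1.31). Tools in the submitters' processing notes, given there with no role, are MACS3 3.0.0a7, HOMER, STAR 2.7.11b, Picard, Trim Galore 0.6.7, ChIPseeker 1.30.0, FastQC, deepTools 3.5.1, Bowtie2 2.4.4 and SAMtools 1.7, with build mm10. What counted the reads, with which strand setting and annotation, is not stated there. Genes that overlap, lie antisense or are close copies may therefore share reads.

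The whole table was tested with edgeR 4.0.16 in R 4.3.3 (TMM factors, default low-count filter with a minimum count of 10, robust quasi-likelihood F test, two-sided). Benjamini-Hochberg adjustment ran over 13075 genes, with calls below 0.05. CPM are counts scaled by the effective library size. Each SE was taken from the fold change and its F statistic and is approximate. Alternatives were RLE factors, DESeq2 1.42.0, limma-voom (limma 3.58.1), no low-count filter, the replicate number as a block, each library left out in turn and both libraries numbered 3 left out. On simulated data with 200 changed genes among 13075 the AMLE over DMSO test recovered 38% of changes of 1.5-fold, 90% at 2-fold, 98% at 4-fold and 92% at 8-fold, with 8 false among 167 calls. The simulation gave every gene the same dispersion and changed far fewer genes than were called in the real libraries. Its rates therefore check the code and do not measure the power or error of the real test. Same-numbered AMLE and DMSO libraries deviated together (r = 0.35, 0.32 and 0.47 across genes, which are not independent replicates), so the numbers may pair the libraries. The labels do not state a pairing. No 2 libraries were identical within sampling noise.

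Summits sharing a peak were merged into intervals with Python 3.11.15, and an interval counted at a start if 1 base fell within 1000 bases of a RefSeq start. Motifs were searched on both strands.

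Named are the 8 members, every other detected gene of both families, for each further list the 2 called genes with the largest absolute change at a mean of at least 1 CPM, 12 signalling and sensor genes (1 of them is not reported here), and the nearest gene of each tested member. Single marker genes such as Cd3e, Cd8a and Itgax were named after their values were seen. The members, lists and tests were chosen with earlier results of these data known.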

Additional observations from a re-analysis of the deposited data

How the results depend on the processing

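Gbp2 and Gbp5 were called higher in all 12 alternatives and the member counts (3 higher, 1 lower) were the same with RLE factors, DESeq2, limma-voom, and without the low-count filter. Without both libraries numbered 3, 5 members were higher. With 1 library left out, 2 to 3 members were higher and 0 to 1 lower. Over all genes, 2235 to 3239 were higher and 2659 to 3462 lower when 1 library was left out. Among the listed pathway genes, 46 to 54 were higher and 8 to 15 lower, and the cause was not tested. For these genes the replicate block gave 56 higher and 21 lower, and leaving out both libraries numbered 3 gave 58 and 17. With the replicate block 3 members were higher and 1 lower, and of the single genes named, Tgtp2, Ifngr1 and Cd8a gained a call. The sign turned in 4 genes that were not called. Itgax lay between -0.14 and 0.067 with 1 library left out. Gm12185 lay between -0.21 and 0.022 with 1 library left out, Ifnar1 between -0.018 and 0.16, and at -0.032 without both libraries numbered 3. Gsdmd, at 0.00, lay between -0.038 and 0.034 with 1 library left out, at -0.035 without both libraries numbered 3, at -0.00126 with limma-voom, -0.0077 unfiltered and -0.00157 with the replicate block.

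A start peak in both AMLE libraries was found for 3 members, or for 1 at a −log10 q of at least 5 and for 4 to 5 when 1 AMLE library was left out. In both DMSO libraries it was found for 5, or for 2 at that −log10 q and for 6 when 1 DMSO library was left out. Depth limits Iigp1 and Gbp10, at a few counts per library, and the SD of 3 libraries limits small changes such as that of Irgm1.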
